A study of Mus musculus with 12 samples.

Results

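The 77 genes described here encode proteins of the mitochondrial ribosome. They are all the genes of the deposited tables whose symbol starts with Mrpl or Mrps followed by a number, out of 24411 genes, and 48 carry an Mrpl symbol (large subunit) and 29 an Mrps symbol (small subunit). The data are 12 poly(A) RNA libraries in 6 groups of 2, and each library pools 10 blastocysts of the mouse stock ICR (genotype wild type), which is outbred. All embryos came from superovulated oocytes fertilized in vitro and grown in KSOM, an embryo culture medium, until 96 hours post insemination (hpi). The ND and HFD groups stand for the diet in the labels, which do not spell the letters out, and the series title speaks of normal weight and obese mice. Within each diet there was a control (ND_C, HFD_C), a group given a non-targeting siRNA (ND_siNT, HFD_siNT) and a group given an siRNA against Nampt (ND_siNampt, HFD_siNampt), which encodes an enzyme of NAD synthesis. The siRNAs were delivered to zygotes by electroporation at 3 to 6 hpi, and the sources used here do not say whether the controls were electroporated. Each pool holds all cells of the blastocyst, so fewer cells of a type and less RNA per cell cannot be told apart. Nothing in the labels ties a pool to its own mating or day beyond the batch number, so p-values reflect how much pools differ, which may be technical.

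Mitochondria keep a small genome whose messages, all for subunits of the respiratory chain and ATP synthase, are translated inside the organelle by a ribosome of their own. The RNAs of that ribosome come from mitochondrial DNA, and all its proteins are encoded in the nucleus, made in the cytosol and imported. Some of these proteins descend from the ribosome of the bacterial ancestor and others were added later and have no bacterial counterpart. Of the 77 members, 48 belong to families shared with bacteria and 29 do not. In the early embryo, mitochondria are inherited from the oocyte and respiration increases towards the blastocyst stage. Genes of mitochondrial DNA were searched in the deposited tables by the symbol prefix mt- only, which gave 0 rows. The ribosomal RNAs and the products of this ribosome are not analysed here.

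The symbols do not match the place of every protein. Mrps18a and Mrps30 were named after the small subunit, but structures of the mammalian ribosome place them in the large subunit. Mrps36 is now assigned to the 2-oxoglutarate dehydrogenase complex of the citric acid cycle. Mrps18a, Mrps18b and Mrps18c are paralogs that all descend from bacterial S18. Because these assignments change few genes, the Mrpl and Mrps symbols are kept below.

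A promoter window from RefSeq (build GRCm38.p6, 250 bases before to 50 after the annotated start) was at hand for 68 of the 77 members. The windows were searched on both strands for 5 short motifs, and a gene was counted once per motif if any of its windows held a match. CCGGAAG, the core bound by ETS factors such as nuclear respiratory factor 2, was present in 25 of 68 members (36.8%). It was present in 18.4% of the genes tested here that had a window and in 9.93% of all 27025 genes with a window. The NRF1-type site of nuclear respiratory factor 1, searched as GCGC, any 1 base and TGCGC, was present in 13 members (19.1%, against 10.5% of tested and 5.19% of all genes). AAGATGGC, a YY1-type site, was present in 12 members (17.6%, against 4.85% and 3.19%). At least 1 of these 3 motifs stood in 42 of 68 members (61.8%), compared with 29.7% of tested and 16.4% of all genes with a window. GGGCGG, the GC box, occurred in 34 of 68 members and in 65.6% of the tested genes with a window. TATAAA occurred in 5 members (7.35%, against 9.13% of tested genes). These matches describe letters in a window and not bound sites. Mrpl52 and Mrpl12 are shown as the members of highest level with an ETS-type or an NRF1-type match within 120 bases before the start and outside other genes. The stretches are chr14:54426789-54426908 on the + strand for Mrpl52 and chr11:120484517-120484636 on the + strand for Mrpl12, with the match in capitals (for Mrpl52 it reads on the other strand).
Mrpl52: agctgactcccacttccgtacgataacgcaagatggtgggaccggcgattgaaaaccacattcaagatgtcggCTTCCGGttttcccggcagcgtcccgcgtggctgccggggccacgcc
Mrpl12: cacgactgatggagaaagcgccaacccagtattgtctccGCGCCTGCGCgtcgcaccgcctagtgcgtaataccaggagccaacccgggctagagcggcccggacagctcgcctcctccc
Mrpl46 and Mrps11, a large and a small subunit gene, start head to head on chromosome 7 with 41 bases between them (chr7:78783090-78783130, shown on the + strand, with a GC box in capitals).
Mrpl46 and Mrps11: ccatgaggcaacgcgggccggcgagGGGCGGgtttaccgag
The same 120 bases are given for Mrpl42 (chr10:95501950-95502069, - strand), Mrps36 (chr13:100744660-100744779, - strand) and Mrps5 (chr2:127587306-127587425, + strand), which were picked after their values were seen. They are among the members of smallest p for siNampt against siNT over both diets, where none passed the adjusted threshold. GC boxes on either strand are in capitals, and Mrps5 has 0 matches to the motifs in its stretch.
Mrpl42: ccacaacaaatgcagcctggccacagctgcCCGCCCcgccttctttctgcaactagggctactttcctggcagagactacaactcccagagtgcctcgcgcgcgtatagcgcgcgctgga
Mrps36: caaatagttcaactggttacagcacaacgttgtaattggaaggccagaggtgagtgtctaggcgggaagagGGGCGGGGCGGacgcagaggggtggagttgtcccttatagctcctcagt
Mrps5: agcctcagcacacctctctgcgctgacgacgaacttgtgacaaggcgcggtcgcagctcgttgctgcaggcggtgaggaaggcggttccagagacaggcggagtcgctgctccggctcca

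All 77 members were detected in every library, and all passed the filter on low counts, with at least 1156 expected counts in every library. Levels between genes are compared in TPM, the authors' transcript abundance, which is scaled by length. The mean TPM over the 12 libraries ran from 17.5 to 1383 with a median of 156.6, where the median of all 14743 genes tested was 3.01. Medians were 139.9 TPM for Mrpl and 172.5 TPM for Mrps members. Cytosolic ribosomal proteins had a median of 1578 TPM (83 genes) and the nuclear genes of the respiratory complexes one of 726.1 TPM (84 genes). Members of bacterial families had a median of 209.8 TPM and the others one of 109.9 TPM, with overlapping ranges (18.4 to 1164 and 17.5 to 1383 TPM). Short genes stood higher on this scale: the 39 members of at most 1043 bases had a median of 283.0 TPM and the 38 longer ones 83.0 TPM.

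Among the large subunit genes, Mrpl42, which has no bacterial counterpart, was highest at 1383 ± 141 TPM (SD, n = 12), with a lowest library of 1197, a median of 1365 and a highest of 1623. Mrpl33, of the bacterial L33 family, followed at 1164 ± 142 TPM, from 999 to 1431, so the libraries of the top pair overlap. Next came Mrpl18 (790.1 TPM), Mrpl22 (594.1 TPM), whose bacterial relative lines the exit tunnel, and Mrpl23 (527.7 TPM), whose relative sits at the tunnel's end. These 5 genes held 38.4% of the summed Mrpl level. The lowest were Mrpl19 (18.4 TPM), Mrpl11 (35.1 TPM), of the stalk base, Mrpl38 (35.7 TPM), Mrpl9 (43.7 TPM) and Mrpl17 (46.9 TPM). Mrpl17 has the longest transcript of the members (6712 bases) and ranked 69 of 77 by TPM but 9 by CPM, the counts scaled to library size but not to length.

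Among the small subunit genes, Mrps18c was highest at 1141 ± 114 TPM, from 1015 to 1377. Its paralogs were lower, Mrps18b at 419.6 ± 30.1 and Mrps18a at 254.3 ± 18.5 TPM, and the ranges of the 3 paralogs over the 12 libraries did not overlap (226.8 to 285.0 for Mrps18a, 366.4 to 473.9 for Mrps18b). Mrps21 (675.8 TPM), Mrps33 (482.6 TPM) and Mrps16 (407.0 TPM) completed the upper end with Mrps18b. Of these, the short Mrps21 (407 bases) ranked 5 of 77 by TPM but 42 by CPM, and Mrps16 (566 bases) 11 and 37. Mrps33 ranked 8 and 4. The lowest were Mrps25 (17.5 TPM), Mrps5 (29.3 TPM), Mrps27 (29.9 TPM), a pentatricopeptide repeat protein, Mrps2 (36.5 TPM) and Mrps9 (52.5 TPM). Mrps30 stood at 59.4 ± 6.64 TPM and Mrps36 at 285.1 ± 24.1 TPM. The head-to-head pair was not equal in level, with Mrpl46 at 162.8 ± 12.7 and Mrps11 at 85.1 ± 9.54 TPM, ranges of 146.9 to 192.9 and 74.8 to 104.3.

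**Figure D1:**
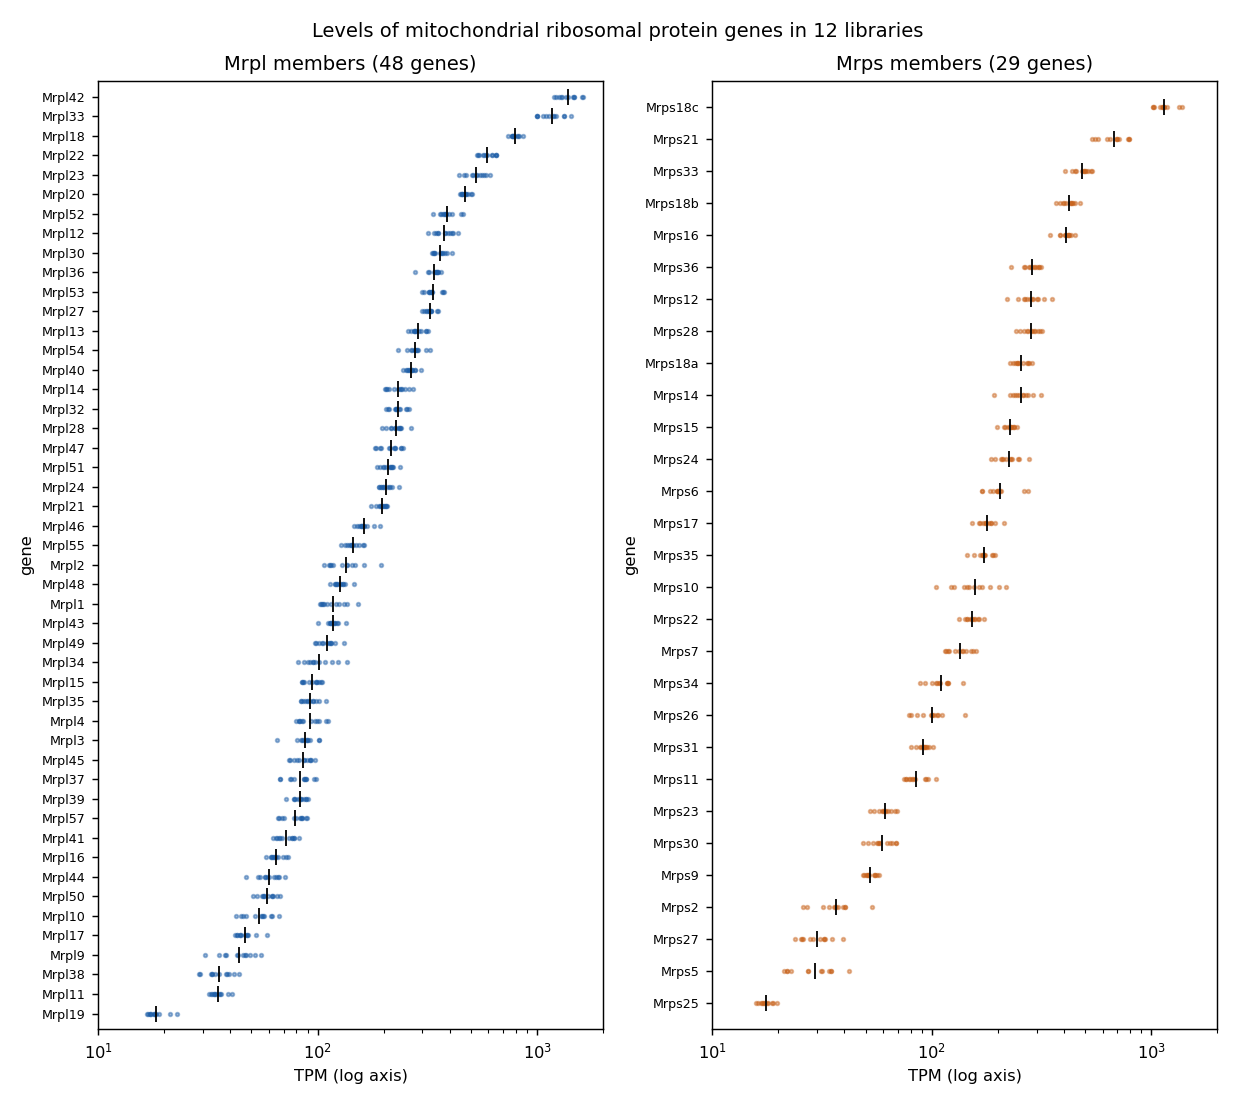
TPM (log axis) of the 48 Mrpl (left) and 29 Mrps genes (right) in the 12 libraries (points), with the mean as a vertical bar and genes ordered by mean. Genes differ far more (17.5 to 1383 TPM) than the libraries of 1 gene do.

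Summed over all members, the level was 1.82% ± 0.0641 of all TPM (SD, n = 12), from 1.70% in ND_siNampt replicate 1 to 1.95% in ND_siNT replicate 2. Mrpl members held 63.7% ± 0.245 of the members' summed TPM, with a range from 63.2% to 64.1% over the 12 libraries. It was 63.2% to 63.8% in the controls, 63.9% to 64.1% in siNT and 63.5% to 63.9% in siNampt, so the ranges of siNT and siNampt met at 63.9%. Counting Mrps18a and Mrps30 with the large subunit and leaving Mrps36 out, it was 66.5%.

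Variation of a member between libraries was measured as the standard deviation of log2 CPM (with TMM-scaled library sizes) over the 12 libraries. Its median was 0.14 for Mrpl and 0.16 for Mrps members, and 0.19 for the 3987 genes at or above the lowest member in mean CPM. The steadiest were Mrps18a (SD 0.0506, 159.0 to 175.4 CPM, a 1.10-fold range), Mrps23 (0.0729) and Mrps18b (0.0788) in the small subunit. In the large subunit they were Mrpl45 (0.0746), which anchors the ribosome to the inner membrane, Mrpl28 (0.0762) and Mrpl49 (0.0852). The most variable were Mrps10 (0.32), Mrps14 (0.26) and Mrps5 (0.24), and Mrpl1 (0.25), of the mobile L1 stalk, Mrpl34 (0.23) and Mrpl42 (0.23). Mrps10 ranged from 83.2 CPM in ND_siNampt replicate 1 to 182.5 CPM in ND_siNT replicate 2, but the other ND_siNampt library held 172.7 CPM, so its spread lay between replicates as much as between groups. Mrps18a and Mrps18c, paralogs by descent, differed in this respect, since Mrps18c had an SD of 0.20.

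The 12 libraries held 42473129 to 50503064 expected counts, and 16463 to 17924 genes had a count. Mean fragment length was 185.7 bases in HFD_siNT replicate 1 and 210.7 to 231.2 bases in the other 11 libraries. Summed markers of trophectoderm, the outer layer of the blastocyst (Cdx2, Krt8, Krt18, Gata3, Tfap2c, Eomes, 6 of 6 detected), ran from 2740 to 5156 TPM, those of epiblast (5 of 5) from 54.6 to 108.9 TPM and those of primitive endoderm (4 of 4) from 51.0 to 81.0 TPM. Markers of all 3 blastocyst lineages were thus present in every library. Cumulus cell markers summed to at most 0.52 TPM, and of 6 sperm markers Tnp1 and Smcp were at 0 in every library while the rest summed to 1.67 to 5.29 TPM. Nampt itself stood at 74.6, 49.4, 61.3 and 66.0 CPM in siNT (ND replicates 1 and 2, then HFD replicates 1 and 2) and at 53.9, 37.7, 50.3 and 44.0 CPM in siNampt. The controls averaged 54.2 ± 11.9, siNT 62.8 ± 10.5 and siNampt 46.5 ± 7.11 CPM (SD, n = 4), a log2 difference of -0.43 (SE 0.17) between siNampt and siNT with overlapping groups and an adjusted p of 0.396, so the knockdown did not pass the test. Without ND_siNT replicate 1 the difference was -0.28.

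Across libraries, the average deviation of the members was small. Each member's deviation from its own 12-library mean of log2 CPM was averaged within a library. The Mrpl averages were highest in both ND_siNT libraries (0.13 and 0.15), and so were the Mrps averages (0.10 and 0.13), with 66 and 58 of 77 members above their own mean. The lowest were in ND_siNampt replicate 1, at -0.094 for each subunit, with 15 of 77 members above their mean. The HFD_siNT libraries (0.01 and 0.03 for Mrpl) and the 4 controls (-0.057 to 0.013 for Mrpl) lay between. On the TPM scale ND_siNT was less apart: replicate 2 held the highest summed Mrpl level, 12481 TPM, but replicate 1, at 11756 TPM, lay below ND_C replicate 1 (11810 TPM) and ND_siNampt replicate 2 (11847 TPM).

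**Figure D2:**
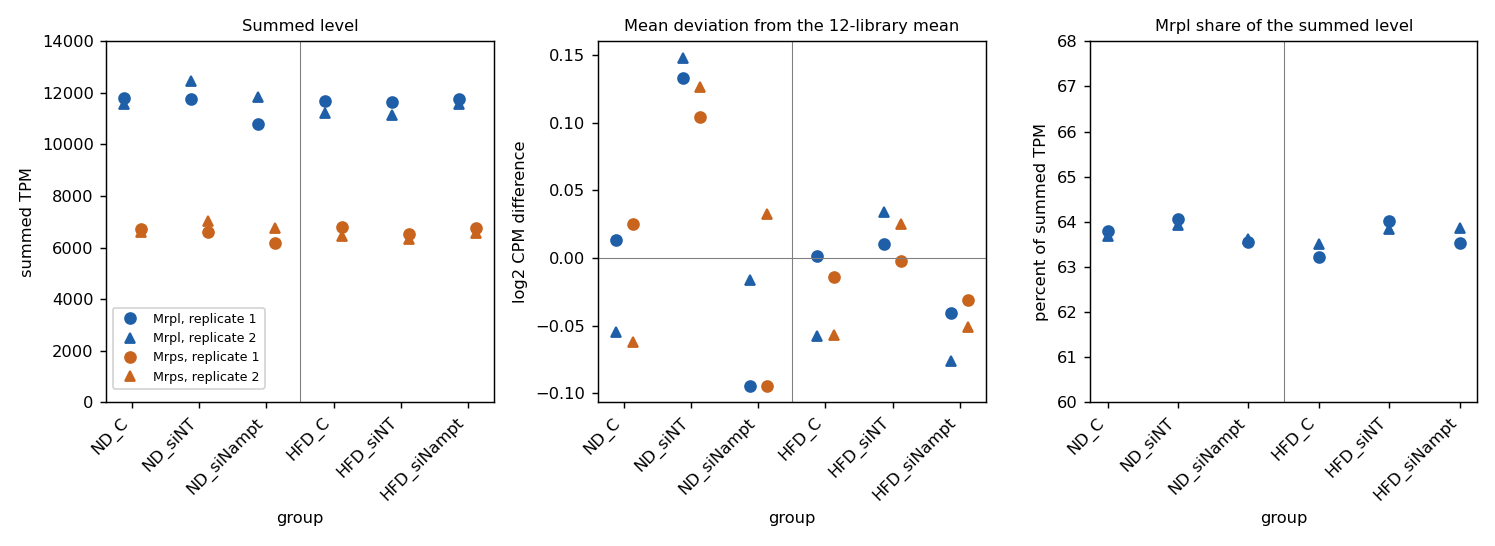
Per library, the summed TPM of Mrpl and Mrps members (left), their mean deviation in log2 CPM (middle) and the Mrpl share of the summed TPM (right, axis from 60% to 68%), by group, with circles for replicate 1 and triangles for replicate 2. The ND_siNT libraries are highest in the middle panel, while the Mrpl share stays between 63.2% and 64.1%.

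**Figure D3:**
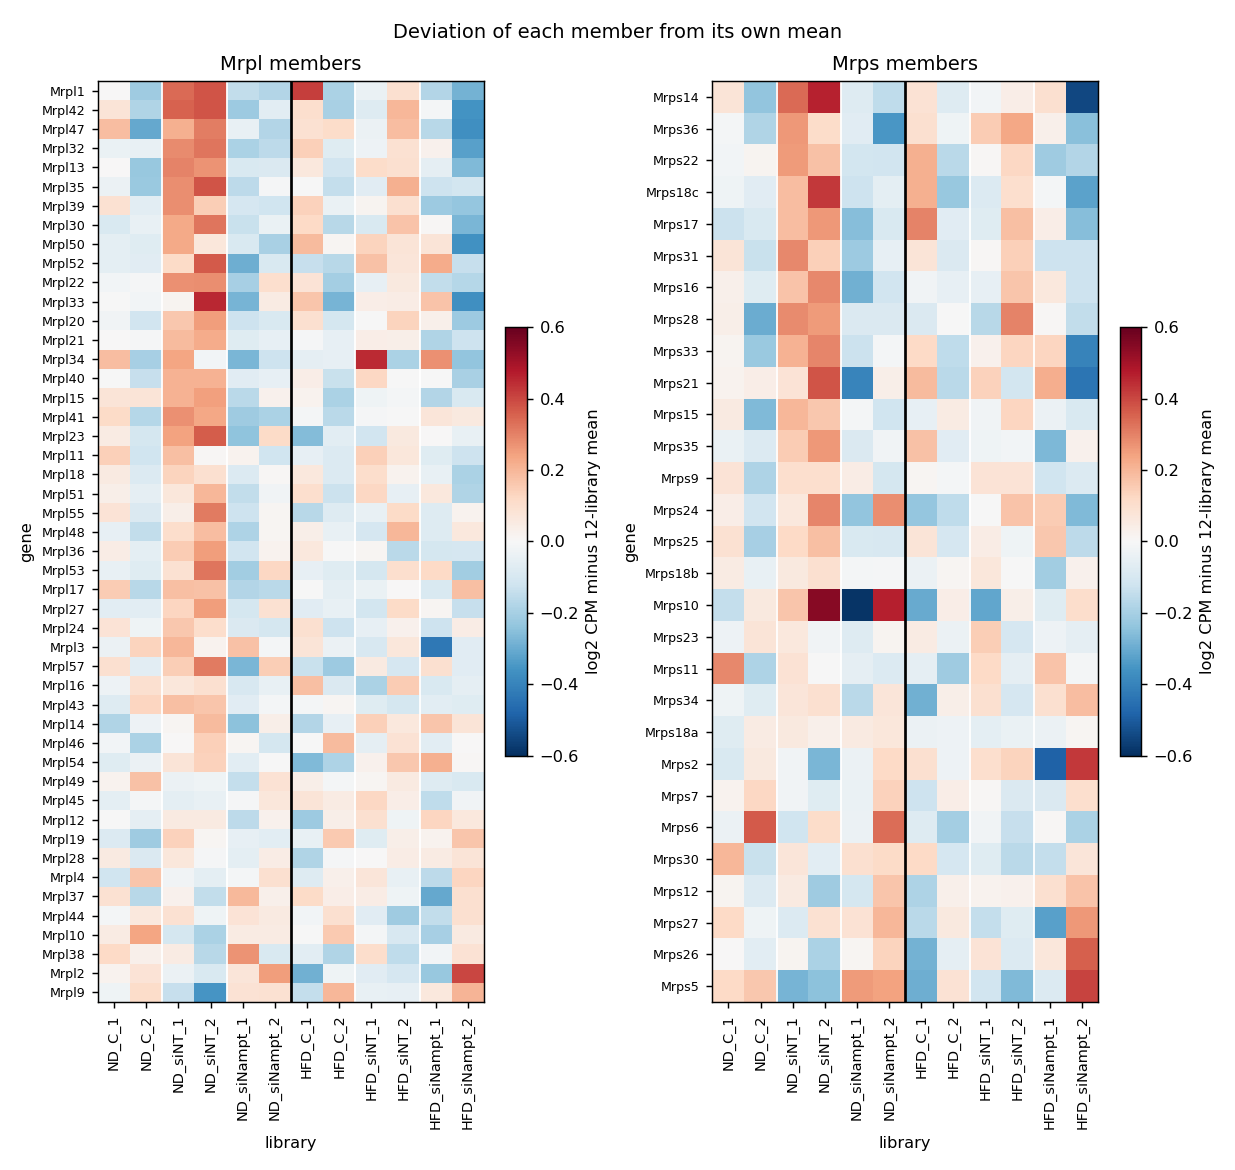
Log2 CPM of each member minus its own 12-library mean, by library (columns, ND left and HFD right of the black line), with Mrpl and Mrps members ordered by their fold change of siNampt against siNT. Most members are above their mean in ND_siNT (on summed TPM replicate 1 is not above all other groups), and Mrps5 is below its mean in all 4 siNT libraries.

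The comparison of siNampt with siNT over both diets asks how embryos with the Nampt siRNA differ from embryos given a non-targeting one. On TMM-scaled counts 40 of 48 Mrpl members were lower in siNampt (median log2 fold change -0.14), as were 19 of 29 Mrps members (median -0.12), whereas on the log2(TPM + 1) scale both medians were 0.02. The median of all genes tested was 0.03 on TMM-scaled counts and 0.08 on log2(TPM + 1). With a pseudocount of 0.1 the all-gene median on TPM was 0.14, a shift of more than 0.1 from TMM-scaled counts, and relative to it the Mrpl and Mrps medians were -0.12 each. Relative to the all-gene median of its own scale, they were -0.06 each on log2(TPM + 1) and -0.17 and -0.15 on TMM-scaled counts. With edgeR's quasi-likelihood test 0 of the 77 members passed the adjusted threshold (0.0% of all genes passed), and DESeq2 called 0 members. At an unadjusted p under 0.05, 22 members were lower (14 Mrpl, 8 Mrps, and 5.05% of all genes) and 2 were higher (6.1% of all genes). The 4 siNampt libraries all lay below the 4 siNT libraries in 10 members (2.71% of all genes) and all above in 2 (3.38%). Within batch 1 the medians were -0.14 for Mrpl and -0.12 for Mrps, and within batch 2 they were -0.16 and -0.12.

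Of the large subunit genes, Mrpl39, a protein that resembles a threonyl-tRNA synthetase and has no bacterial ribosomal counterpart, had 166.5, 152.2, 139.1 and 146.8 CPM in the siNT libraries (ND replicates 1 and 2, then HFD 1 and 2) and 128.2, 126.5, 117.9 and 117.1 CPM in the siNampt libraries. Every siNampt library was below every siNT library, and the log2 fold change was -0.30 (SE 0.09, edgeR adjusted p = 0.396). Mrpl13 likewise had 203.8, 199.6, 179.1 and 177.0 CPM in the siNT libraries and 155.6, 155.8, 159.8 and 138.0 CPM in siNampt, a log2 fold change of -0.32 (SE 0.10, edgeR adjusted p = 0.396). Mrpl42, the most abundant member, had 806.1, 819.1, 597.3 and 721.9 CPM in the siNT libraries and 541.0, 602.4, 623.8 and 490.4 CPM in siNampt. Its groups overlapped through HFD replicate 1, where siNampt was above siNT, and the log2 fold change was -0.38 (SE 0.12, edgeR adjusted p = 0.396).

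Of the small subunit genes, Mrps5 was higher in siNampt, against the direction of the Mrps median on TMM-scaled counts. Its bacterial relative S5 lies at the messenger RNA entry and is known for its part in decoding accuracy. It had 29.2, 29.9, 32.7 and 29.4 CPM in the siNT libraries and 42.2, 41.8, 33.5 and 46.9 CPM in siNampt, with every siNampt library above every siNT library. The means were 30.3 ± 1.63 and 41.1 ± 5.60 CPM (SD, n = 4), and the log2 fold change was 0.44 (SE 0.14, edgeR adjusted p = 0.396), or 0.56 on log2(TPM + 1). The controls, with 38.4, 39.6, 28.9 and 37.6 CPM, overlapped with the lower siNampt value and with the siNT libraries, and all 4 lay below the 3 higher siNampt libraries. Mrps36, the protein of the dehydrogenase complex, had 172.9, 155.8, 160.3 and 169.2 CPM in the siNT libraries and 137.7, 113.1, 147.6 and 121.4 CPM in siNampt, a log2 fold change of -0.34 (SE 0.11, edgeR adjusted p = 0.396) without overlap. Mrps22, a protein specific to mitochondrial ribosomes, had 184.5, 174.6, 155.5 and 168.8 CPM in the siNT libraries and 143.5, 143.0, 133.5 and 137.1 CPM in siNampt, again without overlap (log2 fold change -0.29, SE 0.10, edgeR adjusted p = 0.396). On log2(TPM + 1) the values were smaller for the genes that were lower, at -0.15 for Mrpl39 and Mrpl13, -0.21 for Mrpl42, -0.18 for Mrps36 and -0.14 for Mrps22. Over all alternatives the adjusted p of these 6 genes stayed between 0.128 and 0.962.

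The paralogs of S18 gave unlike values in this comparison. Mrps18a had a log2 fold change of 0.03 (SE 0.08), Mrps18b -0.10 (SE 0.09) and Mrps18c -0.29 (SE 0.12), the last with 377.0, 445.0, 313.5 and 356.4 CPM in the siNT libraries and 304.9, 318.4, 329.2 and 265.8 CPM in siNampt. Mrps30, the other protein placed in the large subunit by structure, stood at 0.09 (SE 0.11). Members of bacterial families and the others had medians of -0.15 and -0.12. Differences between these genes were not tested.

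The values also differed with length, and whether more or less among the members depended on the measure. The rank correlation (Spearman) of fold change with length was 0.22 over the 77 members and 0.097 over all 14743 genes. Split at 1043 bases, the members differed less than all genes. The 39 members of at most 1043 bases had a median of -0.16 and the 38 longer members -0.11, while on the same TMM-scaled counts all 1514 tested genes of at most 1043 bases had a median of -0.16 and all longer genes 0.05. Of the 77 members, 71 were shorter than the median tested gene (2621 bases). Among genes of at most 700 bases the median was -0.21 over all 568 genes and -0.24 over the 14 members. Between 1500 and 2000 bases it was 0.07 over all 1993 genes and -0.09 over 10 members, and between 2000 and 3000 bases it was 0.08 over all 3451 genes and -0.17 over 7 members, so the longer members stayed below the genes of their length. With a smooth trend on length removed from each library, the Mrpl median was -0.08 and the Mrps median -0.07, and with GC content removed as well they were -0.10 and -0.04. The part of length or fragment size in the members' values was not tested beyond these corrections.

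**Figure D4:**
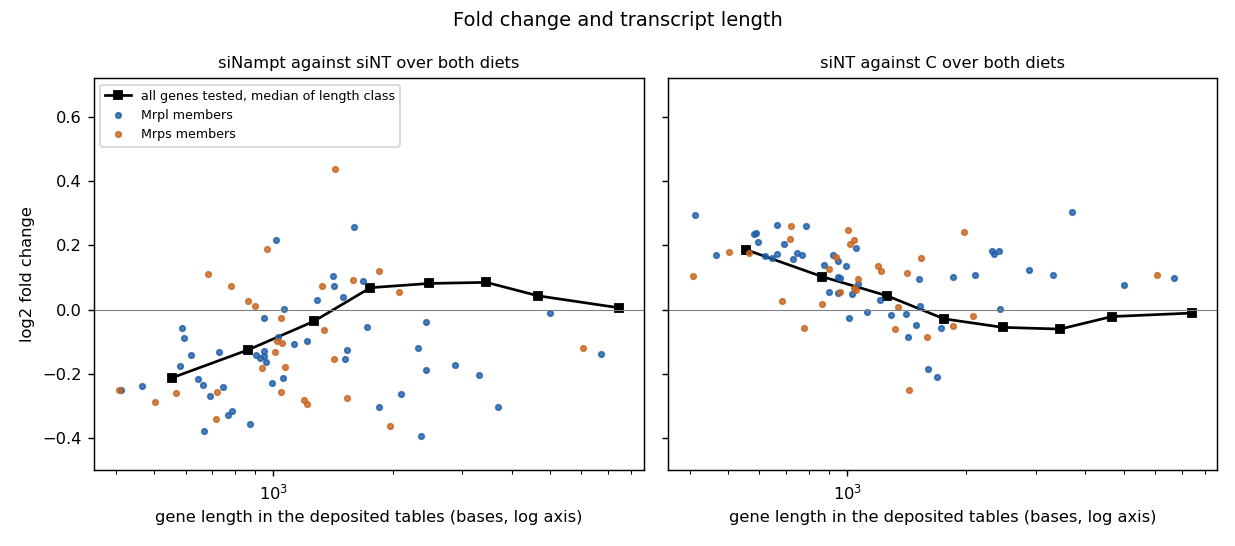
Log2 fold change on TMM-scaled counts against gene length (bases, log axis) for siNampt against siNT (left) and siNT against C (right), with Mrpl and Mrps members as points and the median of all tested genes per length class as black squares. On the left the class medians run from -0.21 up to 700 bases to 0.08 at 3000 to 4000 bases and back to 0.0057 over 6000 bases. In the same classes on the right they are 0.19, -0.06 and -0.01. Mrps5 is the highest point on the left.

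The embryos of the ND groups, taken alone, gave the larger values, although the difference between the diets did not pass the test given after them. In ND the medians were -0.23 for Mrpl (39 of 48 lower) and -0.14 for Mrps (20 of 29 lower) on TMM-scaled counts, and -0.05 and 0.03 on log2(TPM + 1), where all genes had a median of 0.09. With a length trend removed they were -0.11 and -0.07 (-0.01 for all genes), and the Mrps median was -0.23 without ND_siNampt replicate 2 and -0.22 without ND_siNT replicate 1. None of the members passed the adjusted threshold (0.0% of all genes). At an unadjusted p under 0.05, 21 members were lower (3.74% of all genes) and 1 was higher (4.61%). With 2 libraries a group, 48 members had both siNampt libraries below both siNT libraries (19.8% of all genes), and 8 had both above (21.5%). The genes of smallest p were Mrpl41, Mrpl32 and Mrpl42 in the large subunit. Mrpl32, whose precursor is matured by the m-AAA protease of the inner membrane, had 157.5 and 161.7 CPM in ND_siNT and 113.5 and 116.1 CPM in ND_siNampt (log2 fold change -0.48, SE 0.15, edgeR adjusted p = 0.536). Mrpl41 had 194.2 and 188.6 CPM against 138.4 and 140.8 CPM (-0.46, SE 0.14, edgeR adjusted p = 0.536). Mrpl42 gave -0.51 (SE 0.17). In the small subunit they were Mrps16 with 162.9 and 177.0 against 118.6 and 133.8 CPM (-0.43, SE 0.14), Mrps14 with 568.5 and 618.2 against 425.9 and 404.9 CPM (-0.51, SE 0.19) and Mrps5 at 0.51 (SE 0.20), with edgeR adjusted p of 0.539, 0.555 and 0.566. Within batches, 1 library against 1, the Mrpl medians were -0.26 and -0.19. Trophectoderm markers also differed between these groups, with sums of 2740 and 3138 TPM in ND_siNT and 4813 and 5156 TPM in ND_siNampt. Epiblast markers overlapped on the sum (60.6 to 72.35 TPM in ND_siNT, 69.2 to 90.4 TPM in ND_siNampt). Of 5 epiblast genes (median log2 fold change -0.63), 3 were lower without overlap (19.8% of all genes) and 1 was higher (21.5%). The part of these cell types in the members' values was not tested.

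In HFD the medians were -0.07 for Mrpl (34 of 48 lower) and -0.09 for Mrps (18 of 29 lower) on TMM-scaled counts, and 0.08 and 0.05 on log2(TPM + 1), where all genes had a median of 0.07. Without HFD_siNT replicate 1 the Mrpl median was -0.12, and the Mrps median was -0.05 without HFD_siNT replicate 2 or HFD_siNampt replicate 2. Within batches 1 and 2, 1 library against 1, the Mrpl medians were -0.06 and -0.13 (28 and 31 of 48 lower). The Mrps medians were 0.02 and -0.05, with 13 and 15 of 29 lower, so the Mrps direction differed between batches. None of the members passed the adjusted threshold (0.0% of all genes), 0 had an unadjusted p under 0.05 in either direction (2.31% of all genes lower, 1.97% higher), and 18 had no overlap towards lower values (15.6% of all genes) and 7 towards higher ones (17.9%). Mrpl39 stood at -0.28 (SE 0.14), Mrpl13 at -0.26 (SE 0.14), Mrps36 at -0.29 (SE 0.16), Mrps22 at -0.26 (SE 0.15) and Mrps5 at 0.37 (SE 0.20). Mrps5 was at 0.0811 without HFD_siNampt replicate 2 and at 0.60 without replicate 1, and Mrps36 at -0.19 without HFD_siNampt replicate 2. Mrpl47, of the L29 family, had 139.2 and 162.0 CPM in HFD_siNT and 127.0 and 110.6 CPM in HFD_siNampt (-0.34, SE 0.17, edgeR adjusted p = 0.923, as for the other 5). Trophectoderm markers summed to 3319 and 3548 TPM in HFD_siNT and overlapped with HFD_siNampt (3375 and 4918 TPM). Primitive endoderm markers did not overlap on the sum, with 51.9 to 53.8 TPM in HFD_siNT and 67.5 to 81.0 TPM in HFD_siNampt. Taken singly, 4 of 4 had higher values (median log2 fold change 0.37). Of these, 2 had no overlap (17.9% of all genes) and 1 had an unadjusted p under 0.05 (1.97%). The part of these cell types in the members' values was not tested.

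The test of the difference between the diets (HFD minus ND response) also called 0 members (0.0% of all genes), with medians of 0.15 for Mrpl and 0.10 for Mrps, beside 0.02 for all genes. Without HFD_siNT replicate 1, the library of shortest fragments, they were 0.07 and 0.04, and with a length trend removed 0.04 and 0.05 (-0.02 for all genes). Leaving out HFD_siNampt replicate 1 gave an Mrpl median of 0.08, leaving out ND_siNT replicate 2 gave 0.10, and leaving out ND_siNampt replicate 1 gave 0.09 (Mrps 0.06). At an unadjusted p under 0.05, 1 member, Mrpl41, was higher (1.44% of all genes) and 0 were lower (1.62%). It had 159.4 and 160.0 CPM in HFD_siNT and 168.8 and 167.3 CPM in HFD_siNampt, the opposite order to ND, and the interaction was 0.53 (SE 0.20, edgeR adjusted p = 1.00). Leaving out any 1 library kept it between 0.50 and 0.53. Mrpl17 (0.42, SE 0.20), Mrpl23 (0.36, SE 0.22), Mrps16 (0.34, SE 0.20), Mrps10 (0.49, SE 0.40) and Mrps14 (0.31, SE 0.27) followed, with the same adjusted p. The direction of Mrps14 rested on HFD_siNampt replicate 1, at 480.7 CPM against 307.7 CPM in replicate 2, since without replicate 1 the interaction was -0.0441, and without replicate 2 it was 0.56. That of Mrps10 ran from 0.0488 without ND_siNampt replicate 1 to 1.09 without ND_siNampt replicate 2, and was 0.31 without HFD_siNT replicate 1 and 0.27 without ND_siNT replicate 2. Mrpl17 stood at 0.24 without HFD_siNampt replicate 2, Mrpl23 at 0.19 without ND_siNampt replicate 1 and Mrps16 at 0.22 without HFD_siNT replicate 1.

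**Figure D5:**
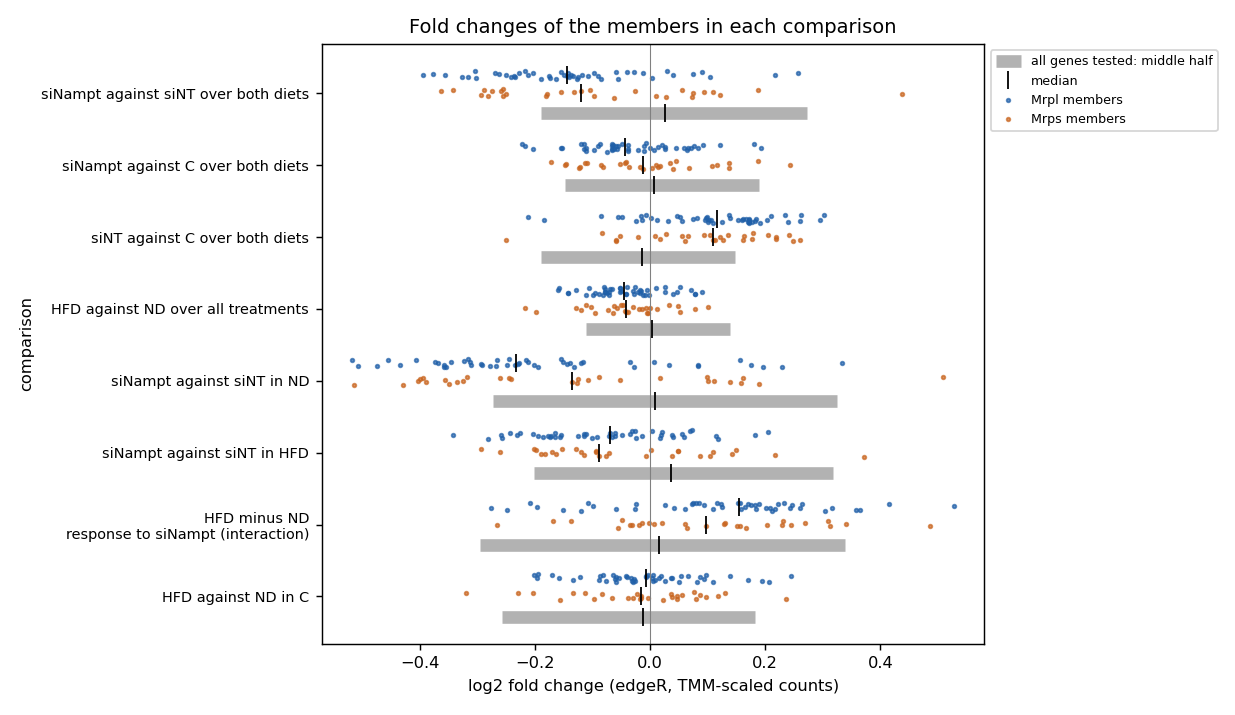
Log2 fold changes of the 48 Mrpl and 29 Mrps members (points, black bar at the median) in the 8 comparisons, with the interquartile range and median of all genes tested in grey, on TMM-scaled counts. Members lie lower in siNampt against siNT and higher in siNT against C, whereas on log2(TPM + 1) the medians over both diets were 0.02 for each subunit in the former and 0.0024 (Mrpl) and -0.0032 (Mrps) in the latter.

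The same siNT libraries also enter the comparison with the controls, which asks what the electroporated non-targeting siRNA goes along with. There 39 of 48 Mrpl and 23 of 29 Mrps members were higher in siNT, with medians of 0.12 and 0.11 on TMM-scaled counts, and 0.0024 and -0.0032 on log2(TPM + 1), beside -0.01 and -0.07 for all genes. None of the members passed (0.0% of all genes), 6 were higher at an unadjusted p under 0.05 (1.97% of all genes), and 0 were lower (2.42%). Without overlap, 6 were higher (1.51%) and 1, Mrpl10 of the stalk base, was lower (1.76%, log2 fold change -0.21, SE 0.10). Mrpl35 had 318.9, 280.6, 326.2 and 296.3 CPM in C and 396.4, 424.6, 311.7 and 378.8 CPM in siNT, with overlap through HFD_siNT replicate 1 (log2 fold change 0.30, SE 0.10). Mrpl13 (0.26, SE 0.10), Mrpl52 (0.29, SE 0.12) and Mrps36 (0.22, SE 0.11) had no overlap, and Mrps28 (0.26, SE 0.12) and Mrps24 (0.25, SE 0.13) did, all with an edgeR adjusted p of 0.984. Genes of at most 1043 bases had a median of 0.14 over all 1514, and members of that length 0.17, while longer genes had -0.03 and longer members 0.08. Without ND_C replicate 2 the Mrpl median was 0.08 and the Mrps median 0.07, and within batches the Mrpl median was 0.05 and 0.17.

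Against the controls, the values of siNampt embryos were close to 0. The Mrpl median was -0.04 (32 of 48 lower) and the Mrps median -0.01 (15 of 29 lower) on TMM-scaled counts, beside 0.01 for all genes. On log2(TPM + 1) they were -0.01 and 0.02, beside 0.02 for all genes. None of the members passed (0.0% of all genes), and 1 was lower at an unadjusted p under 0.05 (1.61% of all genes) and 0 were higher (2.19%). The lower one was Mrpl39, with 146.2, 131.5, 151.4 and 133.8 CPM in C against the siNampt values above, all of which were lower, as in 0.861% of all genes (log2 fold change -0.20, SE 0.09, edgeR adjusted p = 0.999). Mrps26 was the reverse, with 75.2, 71.9, 61.8 and 72.3 CPM in C and 75.8, 82.4, 78.8 and 96.2 CPM in siNampt, also without overlap, as in 1.45% of all genes (0.24, SE 0.11, edgeR adjusted p = 0.999). Mrpl47 (-0.22, SE 0.12), Mrpl54 (0.18, SE 0.10), Mrps22 (-0.17, SE 0.10) and Mrps5 (0.19, SE 0.14) overlapped between groups. Without HFD_C replicate 1 Mrps22 was at -0.0831 and Mrps5 at 0.0906, without HFD_siNampt replicate 2 Mrps5 was at 0.0832 and Mrps26 at 0.16, without ND_C replicate 2 Mrpl47 was at -0.34, and without HFD_siNampt replicate 1 Mrpl54 was at 0.12. The medians ran from -0.08 (without ND_C replicate 2) to -0.01 (without HFD_C replicate 1) for Mrpl and from -0.07 to 0.0067 for Mrps, without the same libraries. The comparisons with siNT and with C share the siNampt libraries and their values are set side by side, not as separate evidence.

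For diet, the comparison of HFD with ND over all treatments gave small values. The Mrpl median was -0.05 and the Mrps median -0.04 on TMM-scaled counts, and -0.01 each on log2(TPM + 1). On TMM-scaled counts 60 of 77 members were lower in HFD, with a median of 0.00 for all genes. All 1514 tested genes of at most 1043 bases had a median of -0.04 on these counts, as did the members of that length. Longer genes had 0.01 and longer members -0.04. None of the members passed (0.0% of all genes), and 1, Mrps6, was lower at an unadjusted p under 0.05 (1.49% of all genes), while 0 were higher (1.72%). Without overlap, 0 members were lower and 0 higher (0.0475% of all genes each). Mrps6, of the bacterial S6 family, had a lowest, median and highest value of 107.0, 119.5 and 149.7 CPM in ND and of 100.8, 107.8 and 116.7 CPM in HFD (log2 fold change -0.22, SE 0.10, edgeR adjusted p = 1.00). Mrpl15 was lower in HFD in 6 of 6 pairs of the same treatment and batch, yet its groups overlapped (-0.16, SE 0.07, edgeR adjusted p = 1.00). In replicate 1 of siNampt the Mrpl15 pair was nearly equal, at 264.5 CPM in ND and 262.5 CPM in HFD. The share of all genes lower in every pair was not counted. Mrpl22 (-0.14, SE 0.08), Mrpl3 (-0.16, SE 0.09), Mrps10 (-0.20, SE 0.16) and Mrps27 (-0.12, SE 0.11) followed with the same adjusted p. Of these, Mrps10 was at -0.0788 without ND_siNampt replicate 2 and at -0.33 without ND_siNampt replicate 1, Mrps27 at -0.0461 and Mrpl3 at -0.0928 without HFD_siNampt replicate 1. In the controls alone the medians were -0.01 and -0.02 on TMM-scaled counts, -0.04 and -0.02 on log2(TPM + 1) (-0.03 for all genes), and 0.09 for each subunit with a length trend removed (0.04 for all genes). Without 1 control library they lay between -0.04 (without HFD_C replicate 1) and 0.02 (without ND_C replicate 1) for Mrpl and between -0.07 (without ND_C replicate 2) and 0.04 (without ND_C replicate 1) for Mrps. Primitive endoderm markers also differed between these groups, at 72.4 to 72.9 TPM in ND_C and 51.0 to 53.8 TPM in HFD_C. So did epiblast markers on the sum, at 94.6 to 102.8 TPM in ND_C and 77.35 to 78.8 TPM in HFD_C, with 4 of 5 genes lower. Of the 5 epiblast genes, 2 were lower without overlap (15.8% of all genes) and 0 had an unadjusted p under 0.05. Trophectoderm markers overlapped (3468 to 3768 and 2993 to 3767 TPM). The part of these cell types in the members' values was not tested. In the controls alone 0 members passed (0.0% of all genes) and 0 had an unadjusted p under 0.05 (1.4% of all genes lower and 1.4% higher). Without overlap, 10 lay on the lower side (15.8% of all genes) and 6 on the higher (14.1%). Mrps6 stood at -0.32 (SE 0.18), Mrps17 at 0.24 (SE 0.17), Mrpl19 at 0.21 (SE 0.15), Mrpl46 at 0.19 (SE 0.14) and Mrps5 at -0.23 (SE 0.20), all with an edgeR adjusted p of 1.00. Mrpl1 stood at 0.25 (SE 0.18) but at -0.08 without HFD_C replicate 1, its highest library at 338.8 CPM, and at 0.51 without HFD_C replicate 2. The others also rested on 1 control library: Mrps6 was at -0.11 without ND_C replicate 2, Mrps17 at 0.0503 and Mrps5 at -0.0446 without HFD_C replicate 1, and Mrpl19 at 0.0988 and Mrpl46 at 0.0898 without HFD_C replicate 2.

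The genes that serve the mitochondrial ribosome without being counted by its symbols were set beside the members for siNampt against siNT over both diets, on TMM-scaled counts unless said otherwise. Of 6 further ribosomal proteins, 5 were lower (median -0.12, and 0.03 on log2(TPM + 1)), 2 of them at an unadjusted p under 0.05 (5.05% of all genes were lower at that p and 6.1% higher), and the smallest p was that of Chchd1, a small subunit protein (-0.29, SE 0.10, edgeR adjusted p = 0.396). Of 26 assembly factors and rRNA-modifying enzymes, 13 were lower and 13 higher (median 0.04, and 0.15 on log2(TPM + 1)), with 3 lower and 1 higher at an unadjusted p under 0.05. Tfb1m, which dimethylates the small ribosomal RNA, had the smallest p, with all siNampt libraries below all siNT libraries (-0.56, SE 0.14, edgeR adjusted p = 0.396), and it was also lower than in C without overlap (-0.50, SE 0.14, edgeR adjusted p = 0.999). Of 15 translation factors, 7 were lower (median 0.01, and 0.16 on log2(TPM + 1)), 2 of them at an unadjusted p under 0.05, led by Slirp, which binds mitochondrial messages (-0.36, SE 0.12). Of 12 tested genes of mitochondrial transcription and its regulators, 7 were lower (median -0.10, and 0.02 on log2(TPM + 1)), 2 at an unadjusted p under 0.05, led by Tefm, the elongation factor of that transcription (-0.36, SE 0.12). Cytosolic ribosomal proteins had a median of -0.19 (78 of 83 lower) and the nuclear respiratory genes one of -0.23 (71 of 83 lower), with -0.02 and -0.06 on log2(TPM + 1). At an unadjusted p under 0.05, 38.6% of the cytosolic and 51.8% of the respiratory genes were lower, beside 28.6% of the members. Higher at that p were 0 and 3 genes of the 2 lists. For siNT against C, 80 of 83 cytosolic and 71 of 83 respiratory genes were higher, beside 62 of 77 members. In ND, 81 and 71 of 83 were lower in siNampt than in siNT, beside 59 of 77 members. None of the genes in these lists passed the adjusted threshold. In the other comparisons over all libraries the smallest p of each list belonged to Ptcd3 (-0.29, SE 0.13), Mtif2 (-0.27, SE 0.14) and Gabpa (-0.28, SE 0.11) for siNampt against C. For siNT against C it belonged to Chchd1 (0.16, SE 0.10), Ddx28 (-0.42, SE 0.19), Slirp (0.23, SE 0.12) and Tefm (0.26, SE 0.12). For diet it belonged to Chchd1 (-0.09, SE 0.08), C1qbp (-0.13, SE 0.08), Lrpprc (-0.11, SE 0.07) and Tfb2m (-0.18, SE 0.11), with edgeR adjusted p of 0.984 or more in all of them.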

How the data were processed

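Poly(A) RNA of 12 pools of mouse embryos was made into libraries with the SMART-Seq v4 PLUS kit, per the labels' protocols. The submitters' processing notes name STAR 2.7.10, RSEM 1.2.28 and the build mm10, without settings. The sources used here do not say whether strand was kept, so reads of a gene and of an overlapping antisense gene cannot be told apart. The deposited tables hold, per the file headers, RSEM expected counts, which split shared reads between genes by a model and so can divide reads of near-identical copies with error, and TPM, scaled by effective length and library total. Of the expected counts 6.43% were not within 0.001 of a whole number, and all were rounded for the tests. The depth of 42473129 to 50503064 expected counts per library gave every member at least 1156 expected counts, and precision rests on 2 pools a group.

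Genes passing edgeR's filterByExpr on the 6 groups (minimum count 10), 14743 of 24411, were tested with edgeR 4.0.16 in R 4.3.3 (two-sided quasi-likelihood tests, TMM factors, all 12 libraries, Benjamini-Hochberg over all tested genes, threshold 0.05). Comparisons over both diets come from diet plus treatment without interaction, and those within a diet, and the interaction, from the 6 group means. SE was recovered from the fold change and its F statistic. CPM values are TMM-scaled, with a prior count of 2 on the log2 scale. The code was tested on simulated counts. The batch tag of the labels equals the replicate number, so numbers pair libraries across groups. Differences between replicates correlated between groups at -0.06 to 0.22 (15 pairs of groups, median 0.0917, 6 over 0.1), and the block was fitted as an alternative only. Pairs are libraries of the same diet (or treatment) and batch.

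Named are the 3 Mrpl and 3 Mrps members of smallest p in each comparison, the 5 highest and 5 lowest by TPM and the 3 most and least variable per subunit, the genes whose name and place differ with their paralogs, Nampt, and genes of smallest p from the other lists, of which those of the cell type markers are given as sums. Mrpl10 and the promoters of Mrpl42, Mrps36 and Mrps5 were added after their values were seen. The members and lists were chosen with earlier results of these data known. Mrpl57 was moved out of the list of further ribosomal proteins, being a member. All 77 members matched the RefSeq gene table by symbol, and 68 had a promoter window. Alternatives were DESeq2 1.42.0, RLE factors, no filter, a filter of 5 CPM in 2 libraries, limma 3.58.1 on log2(TPM + 1) or log2(TPM + 0.1), the replicate block, the compared libraries alone, a length trend removed as an offset, each library left out, and, added after the data were seen, a GC and length trend.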

Additional observations from a re-analysis of the deposited data

How the results depend on the processing

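The number of members past the adjusted threshold was 0 under all 191 combinations of comparison and alternative, and 1168 of 1170 values of named genes kept their direction and their side of the threshold. The number of genes of any kind past the threshold, 0 with edgeR, was 1 for siNampt against siNT, 2 for siNampt against C, 2 for siNT against C, 2 for diet over all treatments, 2 for siNampt against siNT in HFD and 7 for diet in C with DESeq2, and with no filter on low counts it was 119 for siNampt against siNT, 71 for siNampt against C, 76 for siNT against C, 99 for diet over all treatments, 108 for siNampt against siNT in ND, 68 for siNampt against siNT in HFD, 40 for the interaction and 80 for diet in C, of which 0 were members. Of the medians, 151 of 191 for Mrpl and 156 of 191 for Mrps moved by less than the spread between replicates (SD 0.037 and 0.048 of mean log2 CPM). The others were as follows, and the cause was not tested. With limma on log2(TPM + 1) they were 0.016 (Mrpl) and 0.016 (Mrps) for siNampt against siNT, 0.0024 (Mrpl) and -0.0032 (Mrps) for siNT against C, -0.048 (Mrpl) and 0.026 (Mrps) for siNampt against siNT in ND, 0.076 (Mrpl) and 0.053 (Mrps) for siNampt against siNT in HFD and 0.083 (Mrpl) for the interaction, and on log2(TPM + 0.1) 0.016 (Mrpl) and 0.017 (Mrps) for siNampt against siNT, 0.0024 (Mrpl) and -0.0032 (Mrps) for siNT against C, -0.048 (Mrpl) and 0.026 (Mrps) for siNampt against siNT in ND, 0.077 (Mrpl) and 0.054 (Mrps) for siNampt against siNT in HFD and 0.084 (Mrpl) for the interaction. With the length trend removed they were -0.084 (Mrpl) and -0.066 (Mrps) for siNampt against siNT, 0.072 (Mrpl) and 0.045 (Mrps) for siNT against C, -0.11 (Mrpl) and -0.071 (Mrps) for siNampt against siNT in ND, 0.040 (Mrpl) for the interaction and 0.092 (Mrpl) and 0.091 (Mrps) for diet in C, and with the replicate block added to it -0.080 (Mrpl) and -0.072 (Mrps) for siNampt against siNT, 0.073 (Mrpl) and 0.045 (Mrps) for siNT against C, -0.11 (Mrpl) and -0.071 (Mrps) for siNampt against siNT in ND, 0.038 (Mrpl) and 0.041 (Mrps) for the interaction and 0.092 (Mrpl) and 0.091 (Mrps) for diet in C. With the GC and length trend removed they were -0.10 (Mrpl) and -0.045 (Mrps) for siNampt against siNT, 0.074 (Mrpl) and 0.046 (Mrps) for siNT against C, -0.13 (Mrpl) and -0.062 (Mrps) for siNampt against siNT in ND, -0.036 (Mrps) for siNampt against siNT in HFD, 0.042 (Mrpl) and 0.049 (Mrps) for the interaction and 0.091 (Mrpl) and 0.071 (Mrps) for diet in C, and with the replicate block added to it -0.10 (Mrpl) and -0.046 (Mrps) for siNampt against siNT, 0.074 (Mrpl) and 0.048 (Mrps) for siNT against C, -0.13 (Mrpl) and -0.062 (Mrps) for siNampt against siNT in ND, -0.036 (Mrps) for siNampt against siNT in HFD, 0.041 (Mrpl) and 0.031 (Mrps) for the interaction and 0.090 (Mrpl) and 0.070 (Mrps) for diet in C. The replicate block alone changed no call and moved no median beyond that spread (siNampt against siNT over both diets: -0.14 for Mrpl and -0.12 for Mrps). Leaving out each library gave -0.082 to -0.014 (Mrpl) for siNampt against C, -0.070 to 0.0067 (Mrps) for siNampt against C, 0.078 to 0.14 (Mrpl) for siNT against C, -0.23 to -0.12 (Mrps) for siNampt against siNT in ND, -0.28 to -0.17 (Mrpl) for siNampt against siNT in ND, -0.12 to -0.069 (Mrpl) for siNampt against siNT in HFD, 0.075 to 0.18 (Mrpl) for the interaction, 0.041 to 0.13 (Mrps) for the interaction and -0.068 to 0.037 (Mrps) for diet in C, and 0 to 1 genes for diet over all treatments, 0 to 1 genes for siNampt against siNT in HFD and 0 to 2 genes for the interaction. Those gene counts came without HFD_siNampt replicate 2 and, for diet, without ND_siNampt replicate 1. Without HFD_siNampt replicate 1 the interaction of Mrps14 was -0.0441 (over all libraries left out in turn, -0.044 to 0.56), and without HFD_C replicate 1 the diet difference of Mrpl1 in C was -0.0797 (-0.080 to 0.51). The Mrpl share of the members was 66.5% with genes placed by structure and 65.7% by CPM. The smallest expected count of a member in a library was 1156, and the effect of depth was not tested.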
